A study of Mus musculus with 6 samples.

Results

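The genes described here encode laminins, other matrix glycoproteins and matrix proteoglycans. They are 54 of the 54532 genes in the deposited count table, chosen by name from a list, and each name matched a single gene ID. By their usual place in tissue, 19 were classed as basement membrane genes, 28 as genes of interstitial matrix and 7 as genes of neural matrix. RNA was sequenced from retina of C57BL/6J mice of wild-type genotype, all at postnatal day 17, with 3 libraries from normal mice and 3 from mice labelled OIR. OIR is the usual abbreviation of oxygen-induced retinopathy, in which pups are exposed to high oxygen and returned to room air, so that a retina that lost vessels becomes hypoxic and grows abnormal new ones. The labels give neither the oxygen schedule nor whether each library came from a separate animal. The p-values therefore measure the spread between these libraries, which may be technical in part.

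Basement membranes are thin sheets under endothelium, around pericytes and at the inner surface of the retina. Laminins, each built from an alpha, a beta and a gamma chain, form a network that nidogens and the heparan sulphate proteoglycan perlecan (Hspg2) link to a network of type IV collagen. Interstitial matrix holds elastic fibres, fibrillin microfibrils, small leucine-rich proteoglycans and matricellular proteins such as SPARC and thrombospondins, which act on cells more than they bear load. Neural matrix is poor in fibres and consists of hyaluronan, chondroitin sulphate proteoglycans of the lectican family, link proteins and tenascin-R. In the retina it surrounds neurons and synapses.

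Libraries held 15818168 to 17163513 counts. Levels are given as counts per 1000000 counts (CPM) after TMM scaling, and a change was called at an adjusted p under 0.05 in edgeR's quasi-likelihood test over 17108 genes. By Xist and Y-linked transcripts, 2 normal and 1 OIR library came from males. The rod markers were the most abundant of the marker lists, with summed levels of 45940.3 to 49189 CPM in normal and 37376 to 41676 CPM in OIR libraries, and 4 of the 9 were lower in OIR retina. 1 library stood apart: the summed level of 12 lens markers was 6587 CPM in OIR 3 and 10.2 to 397 CPM in the other 5. Each member whose call or sign changed without OIR 3 is therefore given below without it. Shifts in size alone are given for some members only. Pigment epithelium markers, of which 7 of 11 fell, summed to 273 to 488 CPM in normal and 161 to 204 CPM in OIR libraries.

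**Figure D1:**
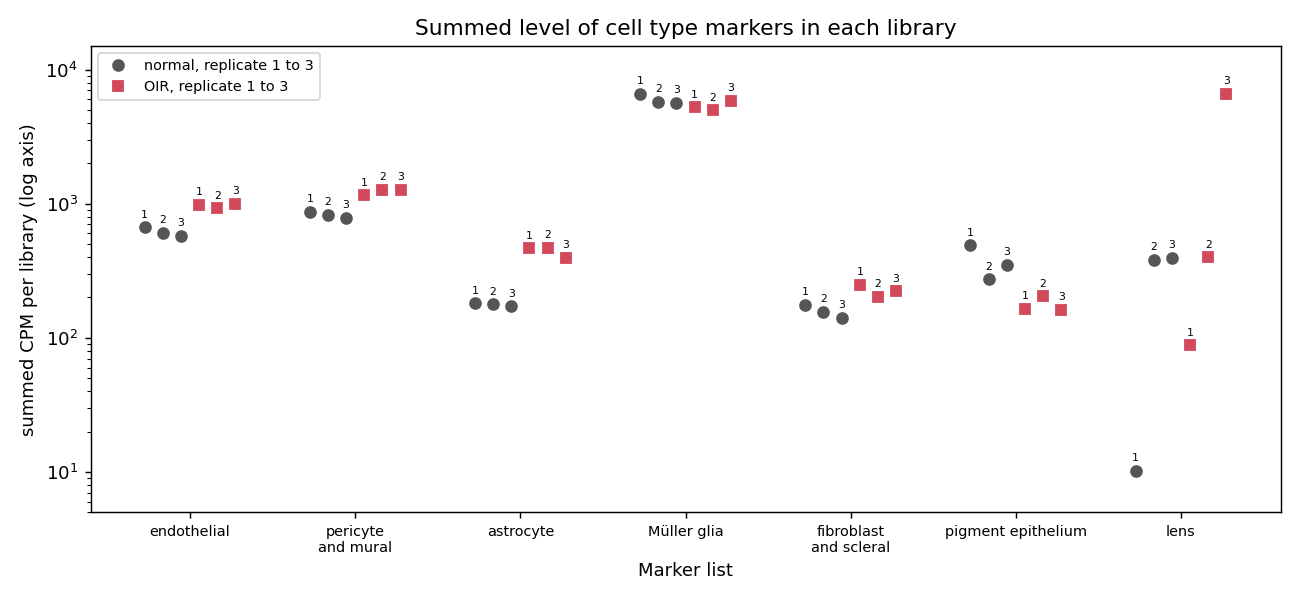
Each point is the summed CPM (log axis) of a marker list in 1 library, with normal libraries as circles and OIR libraries as squares, numbered by replicate. The lens sum of OIR 3 (6587 CPM) lies above all others, the endothelial, mural and astrocyte sums are higher in every OIR library, and the pigment epithelium sum is lower.

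Most matrix genes with enough counts differed between normal and OIR retina. Called changes were mostly rises among basement membrane and interstitial genes and were all falls among neural matrix genes. Of the 51 members tested, 25 were higher and 8 lower in OIR retina. Over all genes tested 19.8% were called, 11.1% higher and 8.73% lower. Every count of called genes in a role or list is to be read against these shares. Members and lists were chosen with earlier results of these data known. An excess over the shares is therefore a description and not a test. The count of lower members was 5 without Normal 3 and 5 without OIR 2. Among basement membrane genes 11 of 19 were higher and 1 lower, with a median log2 change of 0.55. Among interstitial genes 14 of 27 tested were higher and 4 lower, with a median of 0.86. Among neural matrix genes 3 of 5 tested were lower and none was higher, also at an unadjusted p under 0.05 and with DESeq2 or limma-voom, with a median of −0.48. The median over all genes tested was 0.01. Of the higher members, 18 rose at least 2-fold, which 4.99% of all genes did. The groups did not overlap for 34 of the tested members, against 36.8% of all genes tested.

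The filter on low counts left out Lum, Acan and Has2. Of the tested members 46 reached the filter's minimum in all 3 normal libraries. Emilin2, Mfap5, Matn4 and Dcn reached it in all 3 libraries of the OIR group only, and Lamb3 in neither group. Of these, Emilin2 and Matn4 were called higher and count among the members that rose at least 2-fold. They entered the test through the group in which they were high. Summed over members, basement membrane genes had 568 to 624 CPM in normal and 1103 to 1181 CPM in OIR libraries, and interstitial genes 1214 to 1436 CPM in normal and 1934 to 1992 CPM in OIR libraries. Neural matrix genes had 215 to 236 CPM in normal and 127 to 145 CPM in OIR libraries. No library of either group reached into the other group's range in any of these 3 sums, although the sums are carried by a few abundant genes.

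**Figure D2:**
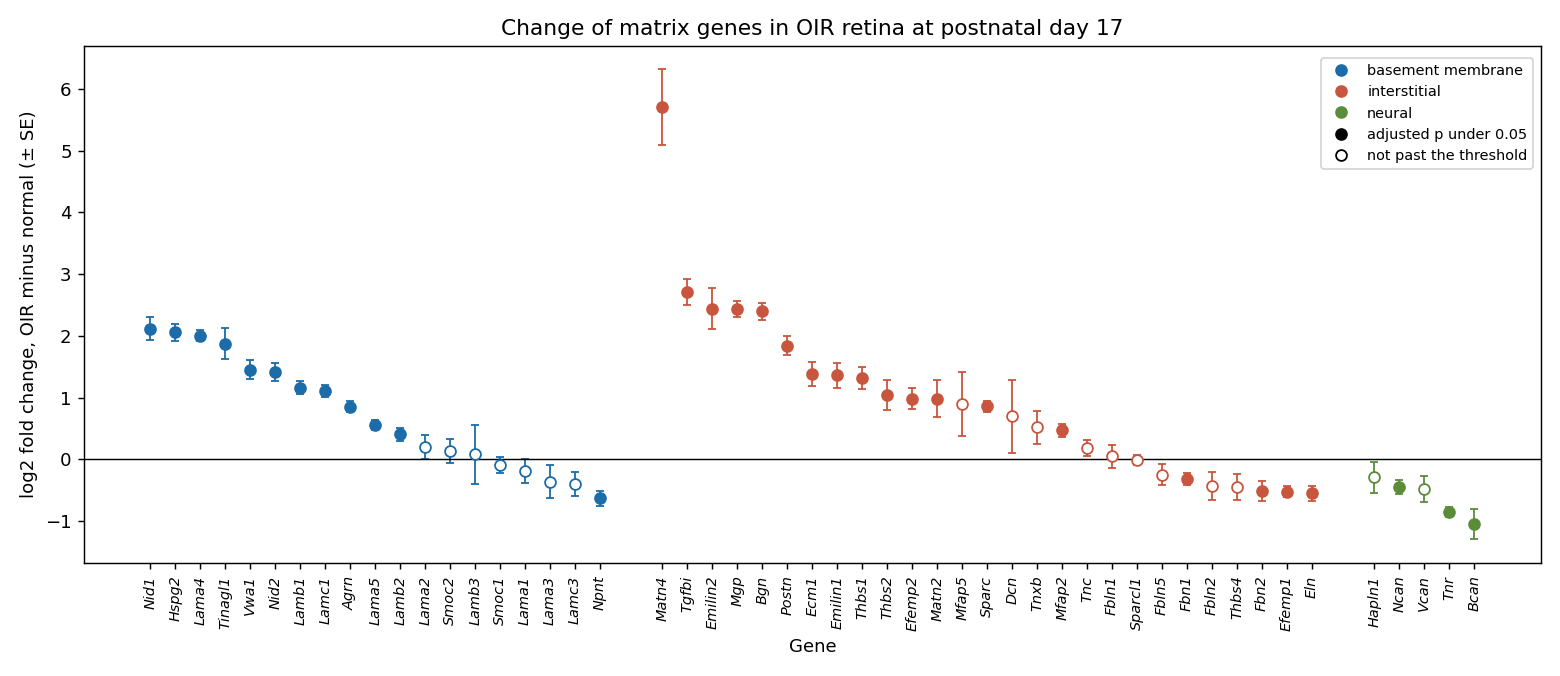
Points are log2 fold changes of OIR minus normal with standard errors for the 51 tested members, grouped by class, and filled points passed an adjusted p under 0.05 in edgeR's test. Basement membrane genes spread from −0.63 (Npnt) to 2.12 (Nid1), interstitial genes from −0.55 (Eln) to 5.71 (Matn4), and the 5 neural matrix genes all lie below 0.

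Sequences upstream of the start site are shown so that letters from genes that went opposite ways can be set side by side. They cover the 6 called members whose single RefSeq window used here lies wholly outside the gene span of the deposited table. They are the basement membrane gene Lama5, the interstitial genes Bgn, Ecm1 and Thbs2, all higher in OIR retina, and the neural matrix genes Tnr and Bcan, both lower. Each run is the 250 bases before the RefSeq start site on GRCm38.p6, written 5′ to 3′ on the gene's own strand. Capitals mark ACGTG or GCGTG, the core letters to which hypoxia-inducible factors are known to bind, or their reverse complements. The windows are chr2:180225860-180226109 for Lama5 (minus strand), chrX:73483351-73483600 for Bgn (plus strand), chr3:95739570-95739819 for Ecm1 (minus strand), chr17:14694263-14694512 for Thbs2 (minus strand), chr1:159523519-159523768 for Tnr (plus strand) and chr3:88000357-88000606 for Bcan (minus strand).
Lama5: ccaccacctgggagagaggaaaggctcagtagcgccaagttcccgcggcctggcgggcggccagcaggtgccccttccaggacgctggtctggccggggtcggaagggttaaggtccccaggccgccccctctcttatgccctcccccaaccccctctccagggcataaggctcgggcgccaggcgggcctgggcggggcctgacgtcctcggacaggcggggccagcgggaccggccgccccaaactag
Bgn: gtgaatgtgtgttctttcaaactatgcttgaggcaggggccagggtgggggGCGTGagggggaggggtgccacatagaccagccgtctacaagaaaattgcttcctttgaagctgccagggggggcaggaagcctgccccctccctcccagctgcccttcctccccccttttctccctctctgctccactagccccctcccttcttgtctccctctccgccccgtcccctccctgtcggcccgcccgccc
Ecm1: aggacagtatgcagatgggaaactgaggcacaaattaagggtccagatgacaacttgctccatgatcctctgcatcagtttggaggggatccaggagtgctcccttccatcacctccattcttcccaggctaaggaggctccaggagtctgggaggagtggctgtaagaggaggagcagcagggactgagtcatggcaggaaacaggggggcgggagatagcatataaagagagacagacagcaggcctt
Thbs2: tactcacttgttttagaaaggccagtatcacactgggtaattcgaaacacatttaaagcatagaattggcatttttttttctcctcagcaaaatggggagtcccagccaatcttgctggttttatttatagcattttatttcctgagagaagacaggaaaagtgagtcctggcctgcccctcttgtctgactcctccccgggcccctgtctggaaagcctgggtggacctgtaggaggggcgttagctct
Tnr: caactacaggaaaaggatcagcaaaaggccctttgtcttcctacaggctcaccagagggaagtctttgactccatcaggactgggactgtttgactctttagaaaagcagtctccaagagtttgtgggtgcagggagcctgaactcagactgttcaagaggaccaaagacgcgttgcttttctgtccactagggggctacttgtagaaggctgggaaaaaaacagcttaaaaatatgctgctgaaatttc
Bcan: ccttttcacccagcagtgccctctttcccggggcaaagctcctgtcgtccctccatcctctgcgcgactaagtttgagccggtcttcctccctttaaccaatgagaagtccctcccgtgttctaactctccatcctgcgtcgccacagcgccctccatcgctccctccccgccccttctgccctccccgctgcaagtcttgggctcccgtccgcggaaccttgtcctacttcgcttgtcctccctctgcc

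Of these 6 windows that of Bgn holds GCGTG at 1 place, and the others hold neither core. RefSeq windows were matched by symbol and used for 35 of the 54 members, with 48 windows, of which 28 reach into the gene span of the deposited table. On both strands, ACGTG or GCGTG stood in 9 of the 26 windows of members that were higher (34.6%), in 3 of the 7 of members that were lower, and in 38.6% of all 32851 windows. A window with CACGTG, which reads as ACGTG on both strands, counts once. The AP-1 letters TGANTCA stood in 2 of the 26 windows (7.69%, against 6.75% of all), Ecm1 among them. GGAATG, the core read by TEAD factors, stood in 5 (19.2%, against 12.6%), that of Nid1 included. These are counts of letters in a short window, and binding was not measured.

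Of the 10 laminin chains, 5 rose and none fell, also at an unadjusted p under 0.05 and with DESeq2 or limma-voom. Lama4 (ENSMUSG00000019846, chromosome 10, 38965515 to 39110188, plus strand, mm10), the alpha chain of endothelial basement membranes, had 17.5, 15.6 and 15.2 CPM in the normal libraries 1 to 3 and 64.9, 70.1 and 59.1 CPM in the OIR libraries 1 to 3. All OIR libraries lay far above all normal libraries, with a log2 change of 2.00 with a standard error of 0.09 and an adjusted p of 6.28e-07 in edgeR's test, or 4.01-fold. Lama5, the other alpha chain of vessel walls, had 35.8, 31.8 and 33.8 CPM in the normal libraries 1 to 3 and 47.5, 51.9 and 49.4 CPM in the OIR libraries 1 to 3. Its rise was smaller, at 1.47-fold (adjusted p of 0.000726), again without overlap.

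Among the beta and gamma chains, Lamc1, Lamb1 and Lamb2 rose. Lamc1 (ENSMUSG00000026478, chromosome 1, 153218922 to 153332786, minus strand), the gamma chain of most laminins, had 75.2, 61.6 and 66.96 CPM in the normal libraries 1 to 3 and 133, 165 and 142 CPM in the OIR libraries 1 to 3. Lamb1 had 46.8, 34.9 and 46.2 CPM in the normal libraries 1 to 3 and 91.1, 101 and 94.7 CPM in the OIR libraries 1 to 3. Both groups were apart for each chain, with 2.16-fold and 2.24-fold rises and edgeR adjusted p of 3.58e-05 and 5.35e-05. Lamb2, a beta chain found in retinal and synaptic basement membranes, rose 1.32-fold, with 27.3 ± 3.58 CPM in the normal and 36.1 ± 2.73 CPM in the OIR group (SD, n = 3, edgeR adjusted p of 0.0243). The Lamb2 call did not hold when single libraries were left out, with log2 changes of 0.35 without Normal 2, 0.35 without Normal 3, 0.35 without OIR 1 and 0.39 without OIR 3.

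The other 5 chains were not called. Lama1, an alpha chain of the inner limiting membrane and the lens capsule, had 13.04, 16.2 and 13.7 CPM in the normal libraries 1 to 3 and 10.4, 10.5 and 16.8 CPM in the OIR libraries 1 to 3. Its highest value came from OIR 3, the library with the high lens sum, and its log2 change of −0.19 was −0.46 without OIR 3. The part of lens RNA in the Lama1 values was not tested. Lama2 and Lama3 had log2 changes of 0.20 and −0.36, and that of Lama2 was −0.02 without OIR 3. Lamc3, which is made in retina and brain, had a log2 change of −0.40 and an edgeR adjusted p of 0.192, although its groups did not overlap. Lamb3, an epithelial chain, was near the detection limit at 28 counts over the normal and 31 over the OIR libraries, and its span overlaps 6 other genes in the table, of which G0s2 held 130 counts and Hsd11b1 44.

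Chains were compared with each other per kb of the deposited gene length. Among alpha chains the share of Lama4 grew and the shares of Lama5 and Lama1 shrank, although the level of Lama5 itself rose. The Lama4 share of the summed alpha chain level was 21.98%, 19.4% and 19.9% in the normal libraries 1 to 3 and 47.8%, 47.7% and 41.1% in the OIR libraries 1 to 3. Its mean share went from 20.4% ± 1.37 to 45.5% ± 3.81 (SD, n = 3) and the groups did not overlap. Lama5 went from 45.5% ± 3.15 to 36.96% ± 0.483 and Lama1 from 22.6% ± 2.36 to 11.01% ± 3.08. The Lama1 share was 9.55%, 8.93% and 14.6% in the OIR libraries 1 to 3, highest in OIR 3, the library with the high lens sum. In normal retina Lama1 and Lama4 did not differ beyond their spread (1.48 ± 0.173 and 1.34 ± 0.103 CPM per kb), and Lama5 was the highest at 2.97 ± 0.176. In OIR retina Lama4 was the highest at 5.36 ± 0.457 CPM per kb, and Lama5 had 4.36 ± 0.19, so Lama5 lost share while its level rose. The shares are a description with no test, and Lama1, Lama2 and Lama3 lost share without a called change of their own.

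Beta chains moved likewise. The per-length ratio of Lamb1 to Lamb2 was 0.914, 0.842 and 1.13 in the normal libraries and 1.44, 1.86 and 1.602 in the OIR libraries. The groups did not overlap.

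**Figure D3:**
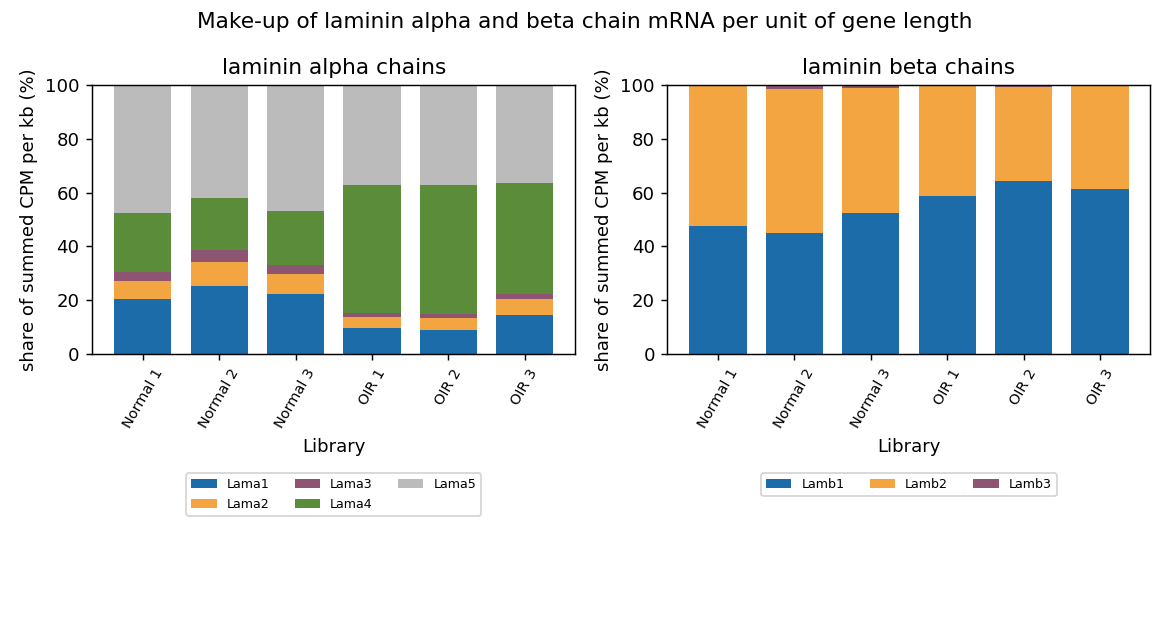
Stacked bars give the share (%) of each laminin alpha or beta chain in the summed CPM per kb of its family, for each of the 6 libraries. The Lama4 share is 19.4% to 21.98% in normal and 41.1% to 47.8% in OIR libraries, and the Lamb1 share is also higher in every OIR library.

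Of 9 genes for linkers and proteoglycans of basement membranes, 6 rose and 1 fell. Nid1 (ENSMUSG00000005397, chromosome 13, 13437551 to 13512269, plus strand), which joins laminin to type IV collagen, had 30.99, 40.9 and 23.3 CPM in the normal libraries 1 to 3 and 115, 133 and 164 CPM in the OIR libraries 1 to 3. Hspg2 (ENSMUSG00000028763, chromosome 4, 137468769 to 137570630, plus strand), the core protein of perlecan, had 36.8, 40.3 and 29.9 CPM in the normal libraries 1 to 3 and 129, 140.4 and 176 CPM in the OIR libraries 1 to 3. Both were highest in OIR 3, and the lowest OIR library was still above 2 times the highest normal library. The rises were 4.33-fold and 4.16-fold (edgeR adjusted p of 3.13e-05 and 4.78e-06), and without OIR 3 the log2 changes were 1.95 and 1.90, against 2.12 and 2.06 with it.

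The other members that rose were lower or changed less. Agrn, the heparan sulphate proteoglycan agrin, had the most CPM of the role, although Npnt was higher per kb in normal retina, with 137, 143 and 148 CPM in the normal libraries 1 to 3 and 291, 257 and 225 CPM in the OIR libraries 1 to 3. It rose 1.804-fold, with a log2 change of 0.85 with a standard error of 0.09 and an adjusted p of 9.85e-05 in edgeR's test. Vwa1, a perlecan-binding protein, had 18.97, 12.7 and 12.4 CPM in the normal libraries 1 to 3 and 40.5, 40.7 and 39.8 CPM in the OIR libraries 1 to 3. Tinagl1, a laminin-binding glycoprotein, had 2.87, 1.7 and 2.31 CPM in the normal libraries 1 to 3 and 6.18, 9.59 and 9.503 CPM in the OIR libraries 1 to 3. Neither gene's groups overlapped, and they rose 2.74-fold and 3.66-fold (edgeR adjusted p of 8.21e-05 and 0.000482). Nid2 rose 2.66-fold, with 16.7 ± 3.73 CPM in the normal and 44.6 ± 4.03 CPM in the OIR group (SD, n = 3, edgeR adjusted p of 7.93e-05). The Nid2 span overlaps Rtraf on the other strand, which held 5111 counts against 3092 for Nid2, and the Vwa1 span overlaps 2 antisense or long non-coding genes with 253 and 190 counts against 2776, so reads near those borders cannot be assigned with certainty.

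Npnt (nephronectin), a ligand of integrin α8β1, went the other way. It had 107, 85.4 and 102 CPM in the normal libraries 1 to 3 and 53.9, 61.7 and 74.1 CPM in the OIR libraries 1 to 3. The groups did not overlap, with a log2 change of −0.63 with a standard error of 0.12 and an adjusted p of 0.00444 in edgeR's test, and per length it went from 19.5 to 12.6 CPM per kb. The calcium-binding SPARC relatives Smoc1 and Smoc2 were not called, with log2 changes of −0.10 and 0.14.

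**Figure D4:**
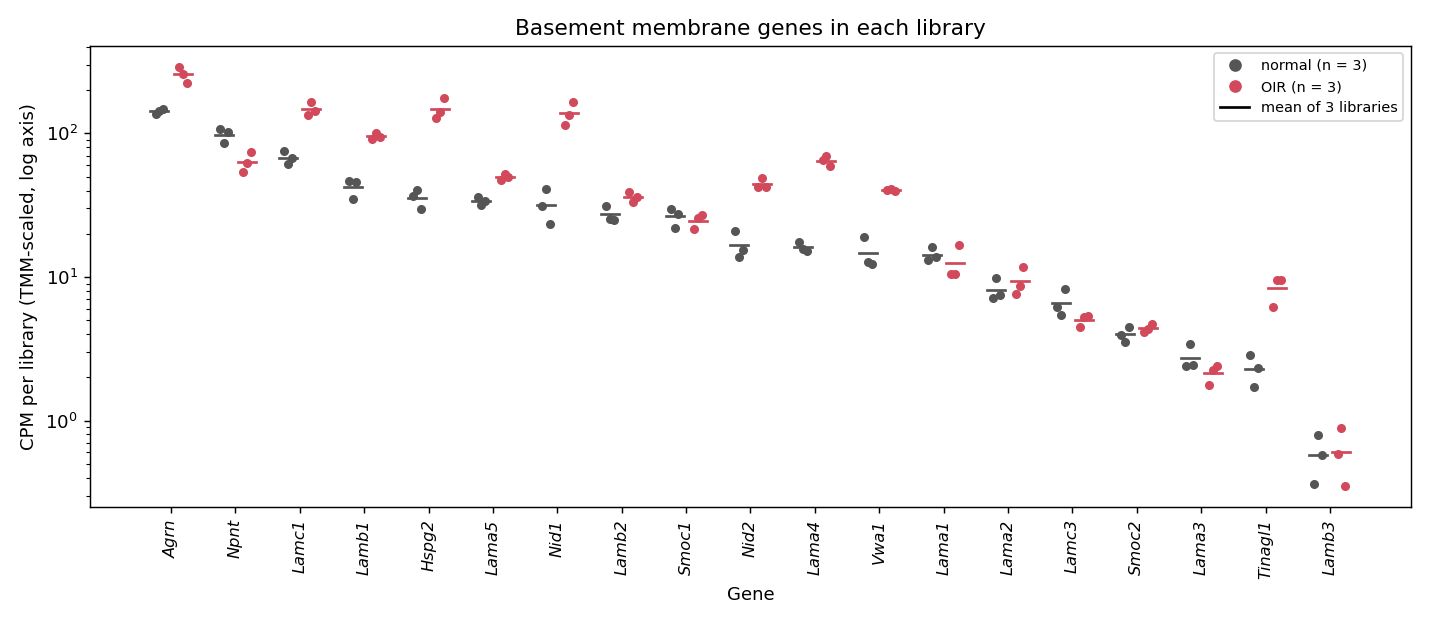
Each point is the CPM of a basement membrane gene in 1 library on a log axis, with normal libraries in grey, OIR libraries in red and a bar at the mean of 3. Lama4, Nid1 and Hspg2 separate by 4.01-fold, 4.33-fold and 4.16-fold, Npnt is lower in every OIR library, and Lama1, Lama2, Smoc1 and Smoc2 overlap.

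Of 18 basement membrane genes outside the list that were tested, 5 rose and 2 fell, with a median log2 change of 0.36, where 11.1% of all genes tested were higher and 8.73% lower. The type IV collagen genes Col4a1 and Col4a2 rose 6.16-fold and 4.63-fold, and Pxdn, the peroxidase that cross-links type IV collagen, rose 2.16-fold, with 40.5 ± 0.939 CPM in the normal and 87.4 ± 5.198 CPM in the OIR group (SD, n = 3). Named after their values were seen, Col15a1 and Egfl7 also rose, by 2.76 and 1.52 on the log2 scale. The genes that fell were Frem1 and Fras1, which anchor epithelial basement membranes, with log2 changes of −0.72 and −0.64. A single one of the pair passed when Normal 1, Normal 3 or any OIR library was left out.

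Of 9 laminin receptor genes tested, 6 rose and none fell, also at an unadjusted p under 0.05 and with DESeq2 or limma-voom. Over all genes tested 11.1% were higher and 8.73% lower. Itgb1, the shared beta subunit of most laminin-binding integrins, and Itga6, a laminin-binding alpha subunit, rose 2.13-fold and 2.64-fold (edgeR adjusted p of 5.42e-06 and 1.97e-05). Itgb4, the partner of alpha 6 in hemidesmosomes, rose 2.35-fold, with 1.2 ± 0.423 CPM in the normal and 2.84 ± 0.268 CPM in the OIR group (SD, n = 3). The other changes were small: 0.33 for Itga3, 0.26 for Dag1 (dystroglycan) and 0.51 for Bcam, named after their values were seen. The count was 2 without Normal 3 and 2 without OIR 1, and 3 without Normal 2.

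Markers of vessel cells moved with the basement membrane genes. Endothelial markers rose in 12 of 15 cases and summed to 579 to 665 CPM in normal and 922 to 1001 CPM in OIR libraries, a ratio of means of 1.57. Pericyte and mural markers rose in 9 of 12 cases, with a ratio of 1.49, and astrocyte markers rose in 3 of 8 and fell in 1, with a ratio of 2.51. Gfap, the intermediate filament gene of astrocytes and reactive Müller glia, carried that ratio, with 22.1 ± 1.98 CPM in the normal and 261 ± 44.2 CPM in the OIR group (SD, n = 3), and without it, a sum chosen after seeing the data, the ratio of the other 7 markers was 1.182. For the basement membrane members the ratio of summed means was 1.94. The endothelial and mural ratios were each held down by an abundant gene that was not called. Kdr had 245 ± 10.5 CPM in the normal and 246 ± 21.03 CPM in the OIR group, of a normal endothelial mean sum of 618 CPM. Vtn had 543 ± 30.5 and 490 ± 16.3 CPM (SD, n = 3), of a normal mural mean sum of 828 CPM. The ratios therefore do not rank matrix genes against vessel markers. In bulk tissue more cells of a type and more RNA per cell cannot be told apart, and the part of these cells in the matrix changes was not tested.

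Elastic fibre and microfibril genes split evenly, with 4 of 12 higher and 4 lower, against 11.1% higher and 8.73% lower of all genes tested. The rises were in Emilin1 and Emilin2, elastin microfibril interfacers, in Efemp2 (fibulin-4), which is needed to assemble elastic fibres, and in Mfap2, a small microfibril protein. Emilin1 had 4.73, 4.37 and 3.34 CPM in the normal libraries 1 to 3 and 12.5, 8.3 and 11.3 CPM in the OIR libraries 1 to 3. Emilin2 had 0.538, 0.607 and 0.321 CPM in the normal libraries 1 to 3 and 2.77, 2.35 and 2.99 CPM in the OIR libraries 1 to 3. Efemp2 had 9.69, 8.26 and 6.29 CPM in the normal libraries 1 to 3 and 17.7, 15.95 and 14.4 CPM in the OIR libraries 1 to 3. No group overlapped for these genes, and they rose 2.57-fold, 5.44-fold and 1.98-fold, with edgeR adjusted p of 0.000917, 0.000607 and 0.00207. Emilin2 had 24 counts over the normal libraries and passed the filter on low counts only through the OIR group, where it is high. Mfap2 rose 1.39-fold, with 27.2 ± 3.55 CPM in the normal and 37.7 ± 0.949 CPM in the OIR group (SD, n = 3), and did not pass without OIR 1 (0.45, adjusted p of 0.0506).

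The genes that fell were those of elastin, fibulin-3 and the fibrillins. Eln, elastin, had 46.4, 36.9 and 34.2 CPM in the normal libraries 1 to 3 and 24.5, 26.5 and 29.3 CPM in the OIR libraries 1 to 3. Efemp1 (fibulin-3), a fibulin of eye tissue, had 37.99, 34.1 and 36.9 CPM in the normal libraries 1 to 3 and 27.3, 23.02 and 25.6 CPM in the OIR libraries 1 to 3. Both were lower in every OIR library, with edgeR adjusted p of 0.00948 and 0.00321 and log2 changes of −0.55 and −0.52, and Eln did not pass without OIR 1 (−0.49, adjusted p of 0.0509). Fbn1 and Fbn2, the fibrillins that form microfibrils, were close to the threshold. Fbn1 had 49.6, 42.3 and 44.8 CPM in the normal libraries 1 to 3 and 40.9, 36.1 and 32.6 CPM in the OIR libraries 1 to 3. Fbn2 had 19.6, 15.2 and 19.97 CPM in the normal libraries 1 to 3 and 15.4, 12.6 and 10.6 CPM in the OIR libraries 1 to 3. The Fbn2 groups overlapped, since OIR 1 was above Normal 2. The log2 changes were −0.32 and −0.51 with edgeR adjusted p of 0.0448 and 0.049. Neither passed without Normal 1 (−0.25 and −0.46), Normal 3 (−0.33 and −0.44), OIR 2 (−0.32 and −0.50) or OIR 3 (−0.26 and −0.40), nor with library totals alone or with sex as a covariate.

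Fbln1, which had the most CPM of the role, although not the highest level per kb, had 67.2, 41.7 and 54.6 CPM in the normal libraries 1 to 3 and 71.01, 54.2 and 44.1 CPM in the OIR libraries 1 to 3. The groups covered nearly the same range, and its log2 change of 0.05 turned to −0.11 without Normal 2 and −0.15 without OIR 1. Fbln2 and Fbln5 were not called, with log2 changes of −0.43 and −0.25, and Fbln2 passed without Normal 2 (−0.65, adjusted p of 0.0401). Mfap5 was low (0.464 ± 0.325 CPM in the normal and 0.882 ± 0.155 CPM in the OIR group, SD, n = 3) and not called. The pigment epithelium sum, given above, was lower in every OIR library, as were Efemp1 and Eln, and its part in them was not tested.

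Of 13 matricellular and adapter glycoprotein genes, 9 rose and none fell, also at an unadjusted p under 0.05 and with DESeq2 or limma-voom. Sparc (ENSMUSG00000018593, chromosome 11, 55394500 to 55423183, minus strand), a collagen-binding protein of remodelling tissue, was the most abundant member. It had 709.6, 608 and 573 CPM in the normal libraries 1 to 3 and 1135, 1100.3 and 1192 CPM in the OIR libraries 1 to 3. It rose 1.81-fold with no overlap (edgeR adjusted p of 8.06e-05). Its relative Sparcl1 (hevin), a synapse-promoting glial protein, had 332, 279 and 301 CPM in the normal libraries 1 to 3 and 281, 313 and 310.2 CPM in the OIR libraries 1 to 3. The groups overlapped and the log2 change of −0.01 changed sign under 4 alternatives. Per length, the ratio of Sparc to Sparcl1 was 1.61 ± 0.115 in normal and 2.95 ± 0.204 in OIR retina (SD, n = 3).

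The largest fold changes of the role were those of Matn4, Tgfbi and Mgp. Matn4 (ENSMUSG00000016995, chromosome 2, 164389393 to 164405160, minus strand), matrilin-4, a filament-forming adapter, had 2 counts over the normal and 129 over the OIR libraries. The depth-scaled ratio was 61.6, with a 95% exact (Clopper-Pearson) interval of 16.7 to 514 that covers counting error only. It had 0.1197, 0 and 0 CPM in the normal libraries 1 to 3 and 2.65, 2.41 and 2.52 CPM in the OIR libraries 1 to 3. Matn4 passed the filter on low counts only through the OIR group, where it is high. Tgfbi, a TGF-beta-induced integrin ligand, had 1.197, 1.7 and 1.61 CPM in the normal libraries 1 to 3 and 9.53, 11.5 and 8.68 CPM in the OIR libraries 1 to 3. Mgp, the calcification inhibitor matrix Gla protein, had 8.97, 10.02 and 7.32 CPM in the normal libraries 1 to 3 and 45.5, 54.4 and 42.9 CPM in the OIR libraries 1 to 3. Every OIR library lay above every normal library for Tgfbi and Mgp. Their rises were 6.58-fold and 5.42-fold, with edgeR adjusted p of 1.23e-05 and 1.82e-06. Postn, periostin, an integrin ligand of scars and fibrovascular membranes, had 4.49, 3.46 and 4.49 CPM in the normal libraries 1 to 3 and 13.8, 14.9 and 15.96 CPM in the OIR libraries 1 to 3. Its rise was 3.59-fold, with a log2 change of 1.84 with a standard error of 0.15 and an adjusted p of 2.03e-05 in the edgeR test.

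Among the other members of the role, Thbs1, the anti-angiogenic and TGF-beta-activating thrombospondin 1, rose 2.49-fold, with 25.2 ± 1.92 CPM in the normal and 62.9 ± 18.3 CPM in the OIR group (SD, n = 3), and Ecm1 rose 2.61-fold, with 5.07 ± 1.39 CPM in the normal and 13.2 ± 0.828 CPM in the OIR group. Thbs2 rose 2.06-fold, with 1.76 ± 0.341 CPM in the normal and 3.63 ± 0.172 CPM in the OIR group and did not pass without Normal 3 (0.91, adjusted p of 0.0576) or OIR 1 (1.00, adjusted p of 0.0525). Matn2 rose 1.98-fold and rested most on OIR 1, where it had 14.2 CPM against 7.83 and 6.63 in the other OIR libraries. Its log2 change of 0.98 was 0.58 without OIR 1, 0.90 without Normal 1, 0.85 without Normal 3 and 1.10 without OIR 2, and it passed in none of these. It also did not pass with limma-voom (0.93, adjusted p of 0.0567) or with sex as a covariate (0.83, adjusted p of 0.0707). Tenascin-C (Tnc), known from wound and developing matrix, was not called (28.4 ± 4.67 CPM in the normal and 32.3 ± 2.7 CPM in the OIR group, log2 change 0.18). Thbs4 was not called either (log2 change −0.45), although its groups did not overlap. Tnxb was also not called (0.52), but passed without OIR 2 (0.77, adjusted p of 0.0414).

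Of the small leucine-rich proteoglycans, Bgn was the only member with a called change. Bgn (ENSMUSG00000031375, chromosome X, 73483602 to 73495933, plus strand), biglycan, had 12.7, 13.8 and 12.1 CPM in the normal libraries 1 to 3 and 83.3, 57.9 and 62.7 CPM in the OIR libraries 1 to 3. The rise was 5.28-fold, with a log2 change of 2.40 with a standard error of 0.14 and an adjusted p of 1.83e-06 in the edgeR test. Decorin (Dcn), the closest relative of biglycan and a marker of fibroblasts, was low, with 1.38, 0.182 and 0.449 CPM in the normal libraries 1 to 3 and 1.29, 1.35 and 0.645 CPM in the OIR libraries 1 to 3. Its groups overlapped and its log2 change of 0.70 did not pass (edgeR adjusted p of 0.464). Lumican (Lum), of cornea and sclera, had 8 and 6 counts summed over the normal and OIR libraries and was not tested.

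Of 14 microglia and macrophage markers 10 rose, with sums of 76.4 to 92.3 CPM in normal and 148 to 202 CPM in OIR libraries. Müller glia markers rose in 2 of 12 and fell in 5. Fibroblast and scleral markers rose in 4 of 8 tested cases and 1 fell, with sums of 141 to 176 CPM in normal and 202 to 249 CPM in OIR libraries. The 4 that rose were Col1a1, Col1a2, Col3a1 and Pdgfra, named after their values were seen. The 1 that fell was Mfap4 (log2 change −1.19), and Ogn, Fmod and Prelp were not called (0.49, −0.34 and 0.17). Pdgfra is also on the astrocyte list. Pi16, Dpt and Angptl7 were each under 1 CPM in every library, and the corneal marker Kera was at 0 in all 6. The part of these cells in the interstitial changes was not tested.

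**Figure D5:**
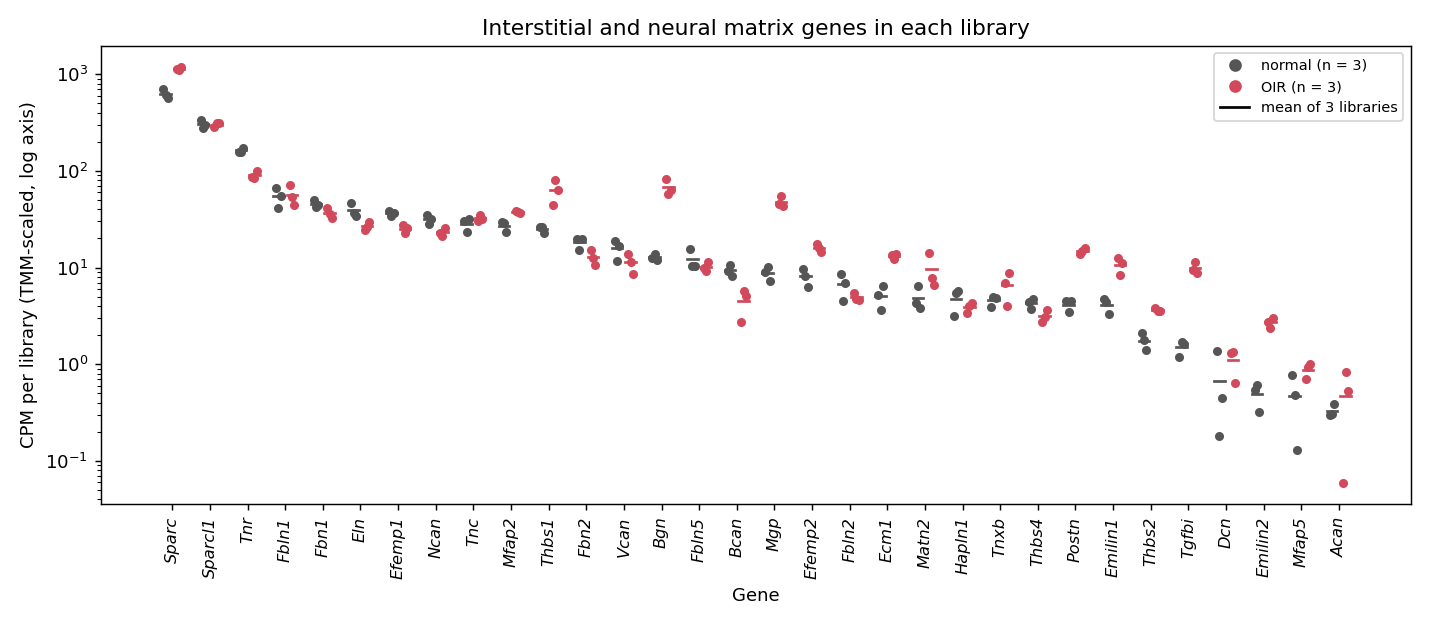
Each point is the CPM of an interstitial or neural matrix gene in 1 library on a log axis, with normal libraries in grey, OIR libraries in red and a bar at the mean of 3. Matn4, Lum and Has2 are left out because they were at 0 in at least 1 library. Bgn, Mgp, Tgfbi and Postn lie apart upwards, Tnr, Bcan and Ncan downwards, and Sparcl1, Fbln1 and Tnc overlap.

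Of the 5 neural matrix genes tested, 3 fell. Tnr (ENSMUSG00000015829, chromosome 1, 159523769 to 159931729, plus strand), tenascin-R, which cross-links lecticans in perineuronal nets, had 157, 158 and 173 CPM in the normal libraries 1 to 3 and 87.1, 83.6 and 100.4 CPM in the OIR libraries 1 to 3. The groups did not overlap, with a log2 change of −0.85 with a standard error of 0.08 and an adjusted p of 6.64e-05 in edgeR's test. Bcan, brevican, a lectican of adult neural tissue, had 9.15, 10.7 and 8.22 CPM in the normal libraries 1 to 3 and 2.71, 5.77 and 5.104 CPM in the OIR libraries 1 to 3. Ncan, neurocan, a lectican of developing neural tissue, had 35, 28.1 and 31.6 CPM in the normal libraries 1 to 3 and 22.6, 21.1 and 25.8 CPM in the OIR libraries 1 to 3. Both were lower in every OIR library, with log2 changes of −1.05 and −0.45 and edgeR adjusted p of 0.0126 and 0.0188. Ncan did not pass without Normal 3 (−0.45), OIR 1 (−0.43) or OIR 2 (−0.39).

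Vcan, versican, the lectican that is also found outside neural tissue, had 18.7, 11.7 and 16.9 CPM in the normal libraries 1 to 3 and 13.9, 11.5 and 8.51 CPM in the OIR libraries 1 to 3. Its groups overlapped and its log2 change of −0.48 did not pass (edgeR adjusted p of 0.136), but did without Normal 2 (−0.66, adjusted p of 0.0316) and with no filter on low counts (−0.49, adjusted p of 0.0196). Hapln1, the link protein that fixes lecticans to hyaluronan, had a log2 change of −0.29 and was not called. The cartilage and perineuronal net lectican Acan held 16 and 24 counts over the normal and OIR libraries, and the hyaluronan synthase gene Has2 held 5 and 22, and neither was tested. Per length, the ratio of Tnc to Tnr was 0.289 ± 0.0414 in normal and 0.596 ± 0.0915 in OIR retina, with Tnc not called and Tnr lower.

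Markers of inner retinal neurons were lower in the same libraries. Amacrine and horizontal markers fell in 7 of 9 cases and summed to 1139.9 to 1208 CPM in normal and 769 to 869 CPM in OIR libraries. Bipolar markers fell in 6 of 8, with sums of 1958 to 2053 CPM in normal and 1435 to 1514 CPM in OIR libraries. Of 8 ganglion cell markers none was called by edgeR or limma-voom, 3 were lower at an unadjusted p under 0.05 in edgeR and 2 were lower with DESeq2. Their sums, 993 to 1604 CPM in normal and 1048 to 1142 CPM in OIR libraries, overlapped. The ratio of summed means was 0.6905 for amacrine and horizontal markers, 0.733 for bipolar markers and 0.597 for the neural matrix members. Tnr carried the neural matrix sum, with 163 of 225 CPM in the normal and 90.4 of 134 CPM in the OIR group means. The ratio of 0.597 therefore largely follows Tnr and does not rank neural matrix genes against neuron markers. The part of these cells in the lower matrix values was not tested.

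The order of the members by level changed below the first places. Per kb of gene length, Sparc had 166 ± 18.8 CPM per kb in normal and 302 ± 12.3 CPM per kb in OIR retina, and Sparcl1 had 104 ± 8.96 CPM per kb in normal and 103 ± 6.004 CPM per kb in OIR retina. These were the first and second in both groups. Mgp had 7.39 ± 1.15 CPM per kb in normal and 40.1 ± 5.09 CPM per kb in OIR retina, and moved from rank 11 to rank 3 among the 54 members. Nid1 moved from 13 to 6, Bgn from 26 to 11 and Hspg2 from 24 to 13, while Tnr moved from 7 to 18. In normal retina Npnt and Efemp1, at ranks 4 and 5, did not differ beyond their spread (19.5 ± 2.24 and 17.8 ± 0.996 CPM per kb), nor did Tnr and Fbln1 at ranks 7 and 8. Nid1 at rank 13 in normal retina (4.57 ± 1.27 CPM per kb) did not differ beyond its spread from the other members at ranks 12 to 18. In OIR retina Fbln1, Npnt and Efemp1 at ranks 8 to 10 did not differ beyond their spread. The same held for Bgn, Vwa1, Hspg2 and Thbs1 at ranks 11 to 14 and for Smoc1 and Tnr at ranks 17 and 18.

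Interstitial genes outside the list also held rises and falls. Of 18 tested genes, 4 rose and 2 fell, with a median log2 change of 0.02, where 11.1% of all genes tested were higher and 8.73% lower. Besides Fn1, fibronectin, which rose 4.41-fold, Igfbp7, an angiomodulin of vessel walls, rose 3.57-fold, with 68.4 ± 12.6 CPM in the normal and 244 ± 37.6 CPM in the OIR group (SD, n = 3). The microfibril-associated gene Mfap4 fell by 1.19 on the log2 scale, with 19 ± 6.902 CPM in the normal and 8.35 ± 0.749 CPM in the OIR group (edgeR adjusted p of 0.00389). Named after their values were seen, Aspn and Mmrn2 rose by 1.68 and 1.02, and Ltbp2, a microfibril-bound relative of the fibrillins, fell by 0.92.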

How the data were processed

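RNA sequencing of total RNA from mouse retina gave 3 normal and 3 OIR libraries at postnatal day 17. The authors deposited 1 table of raw gene counts, with each gene's length in bases, a value of no fixed scale, beside them. Per the submitters' processing notes, reads were handled with CASAVA 1.8 and fastp, the aligner named is HISAT2 2.0.5, the counter featureCounts 1.5.0-p3, the build mm10, and DESeq2 1.20.0 is also listed. Per the labels' protocols libraries were made with the NEBNext Ultra kit, whose standard version is unstranded. The sources used here do not give the annotation, the strand setting or how gene length was computed. Columns were assigned through day and replicate number, and those without OIR in their name were taken as normal.

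Counts were tested with edgeR 4.0.16 in R 4.3.3 (glmQLFit and glmQLFTest, TMM scaling, filterByExpr with a minimum count of 10 and total of 15, no covariate) and Benjamini-Hochberg adjustment over the 17108 genes kept, with a threshold of 0.05. CPM use library totals times TMM factors. Genes left out held 0.164% of counts. The standard error is the log2 fold change over the square root of F. Within each group, every pair of libraries differed beyond sampling noise, with chi-square values of 7.20 to 23.1 per degree of freedom. The tests were checked on simulated counts.

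Members, classes and lists were chosen with earlier results of these data known. All members are named. Values by library are given, per role, for up to 4 called members of at least 1 CPM with the largest changes, all called falls and the 2 most abundant, and of each other list up to 3 genes of smallest adjusted p are named. Alternatives were DESeq2 1.42.0, limma-voom (3.58.1), median-of-ratios factors, library totals alone, no filter, a minimum of 1 CPM in 3 libraries, a replicate block, sex as a covariate, each library left out and a threshold of 0.01. Promoter windows came from RefSeq (GRCm38.p6), and 19 members had no window used here and are not in the promoter counts. Members on chromosome 18, Lama3 and Fbn2, were left out of the promoter counts, while the comparison over all windows kept that chromosome.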

Additional observations from a re-analysis of the deposited data

How the results depend on the processing

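Of the 33 members called, 24 kept their call and direction in each of the 15 alternatives, among them 3 of the 8 that fell (Npnt, Efemp1 and Tnr). The other 9 were Lamb2, Fbn1, Fbn2, Eln, Mfap2, Thbs2, Matn2, Bcan and Ncan. Bcan was lost only at an adjusted p under 0.01. Members higher numbered 22 at an adjusted p under 0.01, and 21 to 25 with 1 library left out. Members lower numbered 4 at an adjusted p under 0.01 and 5 to 10 with 1 library left out, 5 of them without Normal 3 and 5 without OIR 2. Interstitial members lower numbered 2 with library totals alone, 2 with the sex of each library as a covariate, 2 at an adjusted p under 0.01, and 2 to 5 with 1 library left out. Neural matrix members lower numbered 1 at an adjusted p under 0.01. The difference in the Lamb1 to Lamb2 ratio, 0.67 per length, was 1.09 without division by gene length, which follows from the longer Lamb1. The Lama4 share differed by 24.0 to 27.3 percentage points with 1 library left out, against 25.1. Among the results by gene, signs turned only for members that were not called: Sparcl1 with library totals alone (0.031) and with sex as a covariate (0.033), and, with 1 library left out, Sparcl1 (−0.073 to 0.054), Lamb3 (−0.30 to 0.38), Fbln1 (−0.15 to 0.23) and Lama2 (−0.015 to 0.35). Except where stated, the cause was not tested. Same-numbered libraries did not deviate together (correlations of 0.06, −0.16 and 0.07), and with the replicate number as a block 25 members were higher and 7 lower, Fbn2 no longer passing (−0.51, adjusted p of 0.0603), with 1680 higher and 1166 lower genes over the table. Counts over all genes were 1116 higher and 647 lower at an adjusted p under 0.01, and 1237 to 2097 higher and 761 to 1734 lower with 1 library left out, lowest without Normal 3 for higher and without OIR 1 for lower genes. Low counts limit Lamb3, Mfap5, Dcn, Lum, Acan and Has2, for which no change was detectable at this depth.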

Other observations

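Proteoglycan and hyaluronan genes outside the list of 54 moved in both directions. Of 25 tested, 6 rose and 5 fell, with a median log2 change of −0.01, where 11.1% of all genes tested were higher and 8.73% lower. Among the rises, Cspg4, the NG2 proteoglycan of pericytes, rose 2.94-fold, with 8.48 ± 1.204 CPM in the normal and 24.9 ± 1.11 CPM in the OIR group (SD, n = 3), the hyaluronan receptor gene Cd44 rose 3.26-fold, with 12.7 ± 1.13 CPM in the normal and 41.3 ± 12.1 CPM in the OIR group, and the syndecan gene Sdc4 rose 1.54-fold. Named after their values were seen, Sdc1, Gpc4 and Impg2 rose by 1.11, 0.50 and 0.31 on the log2 scale. Without Normal 3, 3 genes of the list rose. The genes that fell, named in the same way, were the link protein gene Hapln4 (−1.05), the testican genes Spock1, Spock2 and Spock3 (−0.52, −0.59 and −0.35) and the interphotoreceptor matrix gene Impg1 (−0.21). Impg1 and Impg2, both of the matrix around photoreceptors, had log2 changes of opposite sign, each with an edgeR adjusted p near the threshold (0.0495 and 0.0441).

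The enzymes that build glycosaminoglycan chains changed little. Of 25 tested genes none rose by edgeR, DESeq2 or limma-voom, with 1 higher at an unadjusted p under 0.05 in edgeR, and 3 fell, Chst3, Extl2 and Ndst1, with log2 changes of −0.46, −0.25 and −0.19 (edgeR adjusted p of 0.00186, 0.0365 and 0.0438). The count of falls is near the share of all genes tested that were lower, 8.73%, while 11.1% were higher. Chst3, a chondroitin sulphotransferase gene, had 55.04 ± 3.37 CPM in the normal and 39.97 ± 0.868 CPM in the OIR group (SD, n = 3). Without Normal 3, OIR 2 or OIR 3 a single gene of the list fell, and without Normal 1 a single gene rose.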
